A study of Mus musculus with 4 samples.

Results

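The Cd28-Ctla4-Icos domain was examined as the stretch chr1:60696358-61050320 of mm10, which runs from 50 kb before the start of Cd28 to 50 kb past the end of Icos and measures 353.963 kb. Peaks of the 4 libraries that shared at least 1 base were merged into regions, and 75 of the 93679 regions of the genome touched this stretch. The 3 genes lie on the same strand in the order Cd28, Ctla4, Icos. The assay was ATAC-seq, in which a transposase inserts sequencing adapters into accessible DNA. Naive CD4+ T cells sorted from spleens of male C57BL/6 mice aged 7 weeks were stimulated for 48 h through CD3 and CD28, with antibodies at 5 µg/ml and 1 µg/ml respectively. Every culture received 5 ng/ml of TGF-β1 together with 10 ng/ml of IL-2, the conditions that induce regulatory T cells (iTreg). The 2 iTreg+IL-4 libraries also had IL-4 at 15 ng/ml, and the 2 iTreg+PBS libraries had none. All mice were wild type, the anti-CD28 antibody was in every culture, each library was made from 50000 cells, and the study describes its samples as independent pools. The cultures may hold cells that did not become regulatory T cells, and a change in the cell mixture and a change within cells cannot be told apart in bulk libraries.

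CD28 is the receptor that gives T cells the second signal for activation when it binds CD80 or CD86 on antigen-presenting cells. CTLA-4 binds the same ligands more tightly and restrains the response, and regulatory T cells carry much of it. ICOS appears on activated T cells, binds the ICOS ligand and helps effector, follicular helper and regulatory T cells. The 3 genes sit side by side in mammals as one family of receptors.

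The lists held 77064 and 56645 peaks in iTreg+PBS replicates 1 and 2, and 78670 and 67743 in iTreg+IL-4 replicates 1 and 2. The number of reads behind them is unknown, so a missing peak says only that none was called. Replicate 2 had the shorter list in both conditions. A peak within 1 kb of a start site was found in all 4 libraries for 7 of 8 T cell marker genes, Trac being the one with none in any. Of the markers of other cells, the promoter was called in all 4 libraries for Cd8b1 of 2 CD8 T cell genes, for none of 5 B cell genes and 3 NK cell genes, and for Cd14 of 5 myeloid genes. Cd8a was called in 2 libraries, Ms4a1 in 3, and Cd79b and Pax5 in 1 each.

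3 groups of sequence carry the findings below. They are given 5′ to 3′ on the + strand of GRCm38, with matches of the motifs searched in capitals. The first is the Ctla4 promoter, the 250 bases before the start site at chr1:60908775-60909024, as RefSeq gives it. Of the 3 genes, 1 was matched in the promoter table, and Cd28 and Icos were not. The capitals are an NFAT match (GGAAAA, here on the other strand), which 23.4% of 32851 promoters of 300 bases hold.
Ctla4 promoter: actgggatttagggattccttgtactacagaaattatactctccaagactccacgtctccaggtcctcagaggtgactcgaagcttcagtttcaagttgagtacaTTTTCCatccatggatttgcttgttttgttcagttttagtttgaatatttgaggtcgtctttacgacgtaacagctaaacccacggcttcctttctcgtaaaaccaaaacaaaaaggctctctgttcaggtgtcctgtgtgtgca
The second is the pair of regions inside Ctla4 and Icos whose calls or ranks separated the conditions. The Ctla4 region, at chr1:60910897-60911146 in intron 1, was called only with IL-4 and holds none of the 8 motifs. The Icos region lies in intron 1 at chr1:60990118-60990988, and its central 300 bases (chr1:60990403-60990702) hold 1 GATA match (AGATAA, here reversed), 1 STAT6-type match (TTCNNNNGAA) and 1 NFAT match. STAT6 is the factor that the IL-4 receptor activates.
Ctla4 intron 1 region: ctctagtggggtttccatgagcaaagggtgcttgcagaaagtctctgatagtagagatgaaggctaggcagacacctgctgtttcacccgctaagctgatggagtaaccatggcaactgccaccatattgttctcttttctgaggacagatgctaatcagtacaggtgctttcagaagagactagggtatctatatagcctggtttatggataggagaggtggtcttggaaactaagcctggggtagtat
Icos intron 1 region: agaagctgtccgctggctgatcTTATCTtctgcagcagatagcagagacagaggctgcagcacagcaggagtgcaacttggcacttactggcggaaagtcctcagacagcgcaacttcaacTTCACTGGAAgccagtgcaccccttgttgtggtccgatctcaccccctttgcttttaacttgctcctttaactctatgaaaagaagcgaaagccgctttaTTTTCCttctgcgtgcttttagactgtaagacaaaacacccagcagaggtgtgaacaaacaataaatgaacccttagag
The third holds 2 regions outside Cd28, Ctla4 and Icos that were called in one condition only. The one called only with IL-4 lies between Ctla4 and Icos at chr1:60939062-60939289, with a GATA and an AP-1 match (TGANTCA). The one called only without IL-4 lies at chr1:60781727-60781975 over the start of the long noncoding RNA gene Gm11579, with a RUNX match (TGTGGTT, here reversed). It also falls in 2310016D23Rik, another long noncoding RNA gene.
Ctla4 to Icos region, with IL-4: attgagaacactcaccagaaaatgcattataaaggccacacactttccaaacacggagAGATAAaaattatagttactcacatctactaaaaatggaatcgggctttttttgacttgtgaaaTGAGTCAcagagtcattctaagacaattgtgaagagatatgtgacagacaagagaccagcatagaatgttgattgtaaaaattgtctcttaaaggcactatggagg
Gm11579 start region, without IL-4: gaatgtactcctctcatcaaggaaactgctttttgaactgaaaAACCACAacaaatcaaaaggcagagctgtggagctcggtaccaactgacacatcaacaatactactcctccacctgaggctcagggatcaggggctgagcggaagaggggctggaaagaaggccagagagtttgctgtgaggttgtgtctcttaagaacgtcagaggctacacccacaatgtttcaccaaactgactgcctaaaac

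The domain was dense in open regions, and most of them were present in every library. It held 21.2 regions per 100 kb, against 3.43 over the genome and a median of 6.71 over the windows of 21911 protein-coding genes with 50 kb on either side. A higher density was found around 0.758% of those genes. Around 34 genes of costimulation and its signalling, the density ranged from 8.20 to 24.2 regions per 100 kb. Around the 8 T cell marker genes it ranged from 17.0 to 27.3 with a median of 21.4, near that of the domain. Of the 75 regions, 45 (60.0%) were called in all 4 libraries, 8 in 3, 9 in 2 and 13 in 1. Over the genome, 51.0% of regions were called in all 4. Shared regions were the wider ones, with a median of 626 bases against 222 for regions called in 1 library.

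**Figure D1:**
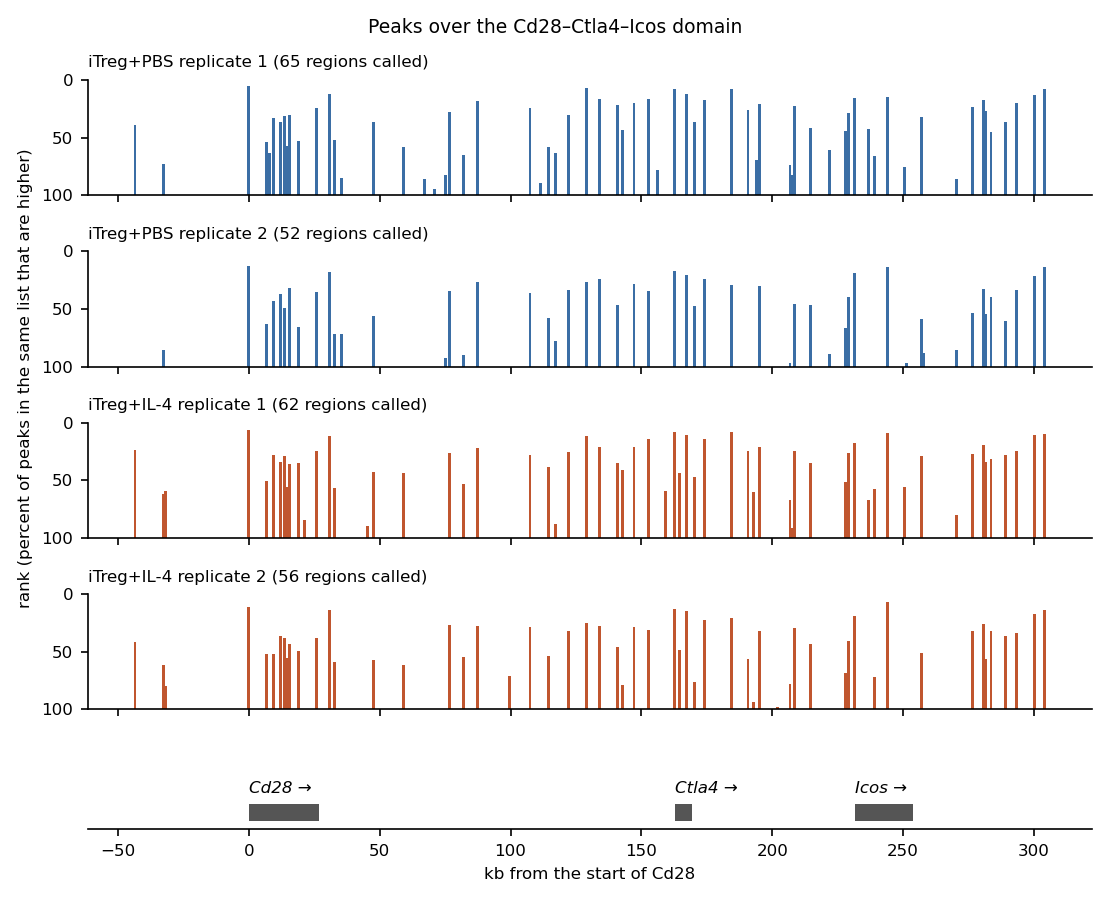
Peaks of each library over the domain, with position in kb from the start of Cd28 on the x axis and, on the y axis, the rank, which is the percent of peaks of the same list with a higher −log10 q. The y axis runs from 100 at the bottom to 0 at the top, so that taller bars are stronger peaks. The 3 gene bodies are drawn at the bottom, and the 65, 52, 62 and 56 regions called form largely one pattern in the 4 libraries.

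The number of open bases over the domain did not separate the conditions. Peaks covered 32293 and 23204 bases in the iTreg+PBS libraries and 32170 and 26106 in the iTreg+IL-4 libraries. The spread between replicates exceeded the difference of the means, which were 27749 ± 6427 (SD, n = 2) without and 29138 ± 4288 (SD, n = 2) with IL-4 (exact permutation test, two-sided, p = 1, where 2 libraries against 2 cannot go below 0.33). The number of peaks was 65 and 52 without and 62 and 56 with IL-4 (exact permutation test, two-sided, p = 1). The sign of both differences turned without iTreg+PBS replicate 2 (to -3155 bases and -6 peaks) and without iTreg+IL-4 replicate 1 (to -1642.5 bases and -2.5 peaks). As a share of all bases in peaks of the same list, the domain took 0.0795% and 0.0792% without IL-4 and 0.0765% and 0.0726% with it, groups that did not overlap (exact permutation test, p = 0.333, the smallest this design allows). As a share of all peaks of the list, the domain took 0.0843% and 0.0918% without and 0.0788% and 0.0827% with IL-4. These groups did not overlap either (exact permutation test, two-sided, p = 0.333). The lists differ in length between libraries, and each share differed between the conditions with the opposite sign to its bases or peaks.

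The stretches of the domain were not equally open. Cd28, with 10 regions in 27.0 kb, and Ctla4, with 3 in 6.81 kb, had 37.0 and 44.1 regions per 100 kb, and Icos, with 5 in 22.4 kb, had 22.3. By its centre, the promoter region of Ctla4 is counted in the gene, and those of Cd28 and Icos before their genes. Outside its promoter, Ctla4 held 2 regions. Only 1 of the 5 regions that lie in the body of Icos was called in all 4 libraries, against 7 of 10 in Cd28. The intergenic stretch from Cd28 to Ctla4 held 26 regions, 14 of them in all 4 libraries, and that from Ctla4 to Icos held 16, with 10 in all 4, the Icos promoter region included by its centre. Downstream of Icos, 9 of 11 regions were in all 4. The 50 kb before Cd28 were the sparsest stretch, with 4 regions counted there (the Cd28 promoter region among them, by its centre). They held a gap of 31.0 kb before the region at the Cd28 start, against a median gap of 3.37 kb. An additional Cd28 transcript outside the basic set of GENCODE starts in this gap, at chr1:60716800. Peaks covered 12.8% and 9.28% of the Ctla4 gene without IL-4 and 14.9% and 16.1% with it, and 2.25% and 1.24% of the upstream stretch without and 3.58% and 2.81% with it. The conditions did not overlap in these 2 stretches of 7. Over the genome, the bases in peaks were higher with IL-4 without overlap in 21.1% of the bodies of protein-coding genes with a peak (lower in 4.22%) and in 19.9% of the stretches of 50 kb before such genes (lower in 3.09%), so this count is near the background.

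**Figure D2:**
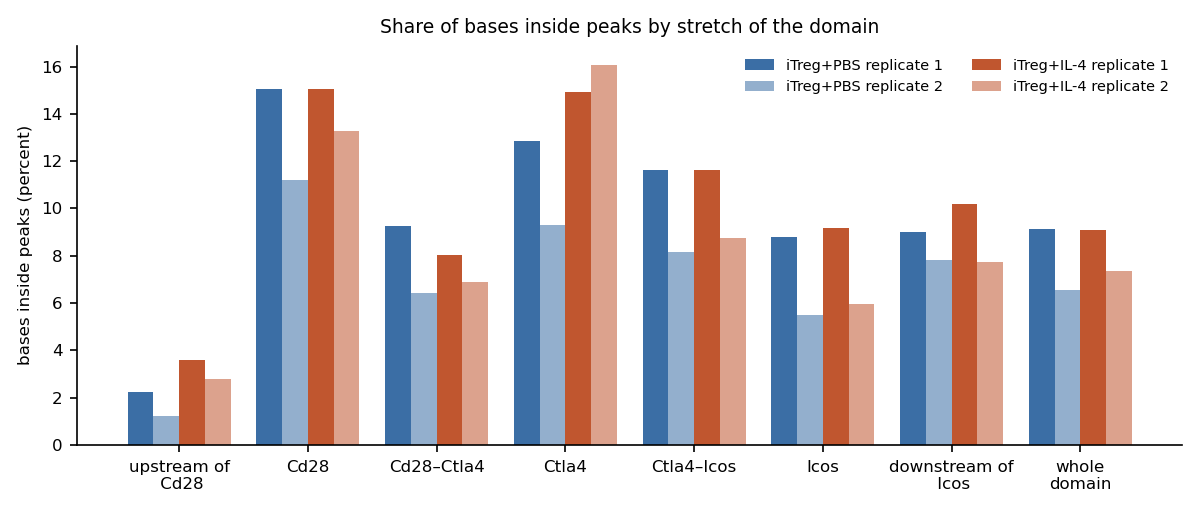
Percent of the bases of each stretch that lie inside peaks, with 1 bar per library and the whole domain at the right. The iTreg+IL-4 bars stand above both iTreg+PBS bars upstream of Cd28 and in Ctla4, where they reach 14.9% and 16.1%, a pattern shared by 21.1% of gene bodies with a peak.

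All 3 promoters carried strong peaks in every library, with or without IL-4. A promoter peak in all 4 libraries was found for 58.1% of protein-coding genes. At the Cd28 promoter (chr1:60745753-60746796, over exon 1 and the start of intron 1), 5.61% and 12.7% of the peaks of the list ranked higher in the iTreg+PBS libraries, and 6.14% and 11.1% in the iTreg+IL-4 libraries. At the Ctla4 promoter (chr1:60908780-60909444), these values were 8.04% and 17.4% without and 8.20% and 12.4% with IL-4. At the Icos promoter (chr1:60977560-60978189), they were 15.4% and 19.0% without and 17.2% and 19.0% with IL-4. The order Cd28, Ctla4, Icos held in all 4 libraries by rank, and the conditions overlapped at each gene. By pileup height, the signal at the summit that the authors deposited unscaled, the Ctla4 promoter stood at 1.11 and 0.966 times the Cd28 promoter without IL-4 and at 1.15 and 1.17 times with it. The Icos promoter stood at 0.588 and 0.782 times the Ctla4 promoter without and at 0.533 and 0.602 times with IL-4, which overlap. Among the regions called in all 4 libraries alone, the Icos promoter was passed by 24.8% and 22.5% without and by 28.3% and 26.9% with IL-4. On this scale it was weaker with IL-4 in both libraries, as were 12.7% of all such regions of the genome.

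Beside the promoters, 3 other regions had the best ranks in their weakest library. The region chr1:60776717-60777672, 30.8 kb from the Cd28 start and inside Gm11579, was passed by 11.8% and 17.7% of peaks without and 11.6% and 13.3% with IL-4. The region chr1:61050213-61050864, which crosses the far edge of the domain 72.6 kb from the Icos start, was passed by 7.61% and 13.9% without and 10.1% and 13.9% with IL-4. In the full lists the conditions overlapped at both. Among shared regions alone, the groups stood apart by under 1 point at both. The region past Icos was passed by 12.3% and 16.5% without and 16.6% and 19.7% with IL-4, and the one in Gm11579 by 19.03% and 20.93% without and 19.01% and 18.79% with IL-4. By height over the median shared region, the conditions overlapped at both. The other was the Icos intron 1 region described next.

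Of these 6 strong regions, the Icos intron 1 region was the one that ranked higher with IL-4 in the full lists. Over the genome, 19.7% of shared regions did so, and 1 of 6 is near that share. It was passed by 15.0% and 13.3% of peaks in the iTreg+PBS libraries and by 9.05% and 6.84% in the iTreg+IL-4 libraries, with means of 14.1% ± 1.23 and 7.94% ± 1.57 (SD, n = 2 each) and a difference of -6.19 points. Its height was 228 and 142 without and 331 and 345 with IL-4. Divided by the height of the Icos promoter in the same library, it was 0.809 and 1.28 without and 1.38 and 1.98 with IL-4, so the intron passed the promoter in iTreg+PBS replicate 2 and in each library with IL-4. The groups also stood apart by rank of height and by rank among shared regions, but not by height over the library's median shared region, where the log2 values were 1.23 and 1.86 without and 1.82 and 2.34 with IL-4. This region is the only one in the Icos body present in every library, lies 12.6 kb from the Icos start and also falls in Gm37039, a gene record that GENCODE holds as still to be verified. Its STAT6-type match is within the central 200 bases, where 8.00% of the domain's regions and 5.84% of all regions have one.

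**Figure D3:**
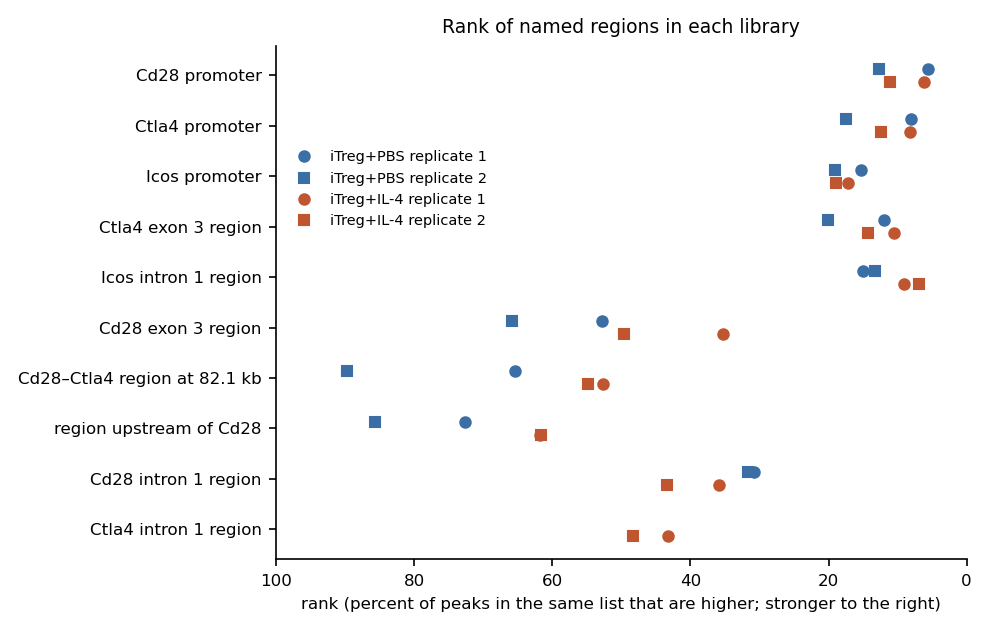
Rank of 10 named regions in each library, as the percent of peaks of the same list that are higher, with stronger peaks to the right, circles for replicate 1 and squares for replicate 2. The promoters overlap between iTreg+PBS (blue) and iTreg+IL-4 (orange), the Icos intron 1 region does not, and the Ctla4 intron 1 region has no point without IL-4.

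Within Ctla4, a region of intron 1 was called only where IL-4 was present, while the promoter region, which reaches into the same intron, was called in all 4 libraries. At chr1:60910897-60911146, 2.0 kb from the start of the gene to the region's centre, a peak was called with heights of 146 and 105 in the iTreg+IL-4 libraries, at ranks of 43.2% and 48.3%, and none in either iTreg+PBS library. It had the best ranks of the 6 regions called in one condition only. The remaining region of the gene, at exon 3 (chr1:60913319-60913883, chosen after its values were seen), was passed by 12.0% and 20.1% without and 10.5% and 14.3% with IL-4, which overlap. Its height was 0.871 to 0.951 times that of the Ctla4 promoter in the 4 libraries.

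Regions with a call in each of the iTreg+IL-4 libraries and no call under PBS numbered 3 of 75, and over the genome this share was 2.60%. Beside the Ctla4 intron, they were a region 31.8 kb before the Cd28 start (chr1:60714405-60714780, heights 34 and 19, ranks 59.4% and 79.9%) and the region between Ctla4 and Icos shown above (heights 79 and 33, ranks 60.1% and 93.2%). The converse, a call in each PBS library and none with IL-4, was found at another 3 regions, where the share over the genome was 0.699%. They were the Gm11579 start region (heights 52 and 34, ranks 85.0% and 72.1%), a region between Cd28 and Ctla4 (chr1:60821460-60821688, heights 24 and 13, ranks 82.6% and 92.4%) and one between Ctla4 and Icos (chr1:60968080-60968350, heights 37 and 14, ranks 60.5% and 89.5%). The last of these is 69.7% repeat sequence. All 3 regions called only without IL-4 lay in the weaker part of their lists. With the upper 50% of each list alone, 0 regions were called only without IL-4 and 2 only with it. The share over the genome under this cut was not computed. The counts with and without IL-4 became 9 and 5 without iTreg+PBS replicate 1 and 3 and 9 without iTreg+PBS replicate 2. They became 5 and 5 without iTreg+IL-4 replicate 1 and 6 and 3 without iTreg+IL-4 replicate 2. A condition with a library left out rests on a single library, so the rule is looser and these counts can hardly fall. Their shares over the genome were not computed.

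Among the 45 shared regions, the count in each direction depended on the peaks they were ranked against. In the full lists, 10 of 45 ranked higher in both iTreg+IL-4 libraries than in both iTreg+PBS libraries, and 1 ranked lower. Over all 47767 regions called in all 4 libraries, these shares were 19.7% and 5.18%. The median difference was -2.66 points in the domain and -2.05 points over all shared regions. It was -0.22 points with lists of equal length, and it turned to 3.91 points without iTreg+PBS replicate 2 and to 0.52 points without iTreg+IL-4 replicate 1. When shared regions alone were ranked, which brought the genome's median difference to 0.028 points, 7 of 45 ranked higher with IL-4 and 11 lower, and over the genome 14.3% and 12.7% did. In the full lists the 2 counts were 33 and 1 without iTreg+PBS replicate 1 and 11 and 22 without iTreg+PBS replicate 2. They were 10 and 12 without iTreg+IL-4 replicate 1 and 24 and 2 without iTreg+IL-4 replicate 2. With a library left out, its condition rests on a single library, so the rule is looser and the counts can hardly fall. Their shares over the genome were not computed. Replicate 2 ranked weaker than replicate 1 at 41 of the 45 regions without IL-4 and at 42 with it. Over all 47767 shared regions it did so at 40062 without and at 32778 with IL-4, and its part in these counts was not tested.

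Of the 45 regions, 4 ranked higher with IL-4 by −log10 q in the full list, by height and among shared regions alike, and none ranked lower by all of these. Over all 47767 shared regions, 8.92% ranked higher and 2.80% lower by all 3, so 4 of 45 is at the background share. One was the Icos intron 1 region. The others had the largest rank differences among regions whose conditions did not overlap. A region between Cd28 and Ctla4 (chr1:60828231-60828612, 82.1 kb from the Cd28 start) was passed by 65.4% and 89.7% of peaks without and 52.7% and 54.8% with IL-4. A region 32.4 kb before Cd28 (chr1:60713715-60714125) was passed by 72.7% and 85.7% without and 61.7% and 61.6% with IL-4. It neighbours the region there that was called only with IL-4. The region over exon 3 of Cd28 and the introns beside it (chr1:60765055-60765413) was passed by 52.9% and 65.8% without and 35.3% and 49.7% with IL-4. These 3 also stood higher with IL-4 by height over the median shared region. They were peaks of the middle or lower part of their lists, with heights of 12 to 112.

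The one region that ranked lower with IL-4 in the full lists lies in intron 1 of Cd28 (chr1:60761627-60762088), where 30.8% and 31.7% of peaks ranked higher without and 35.9% and 43.5% with IL-4. The conditions also stood apart there among shared regions, where it was passed by 49.3% and 37.4% without and 57.8% and 60.5% with IL-4, and by height over the median shared region. By rank of height they overlapped, and 54.1% of the region is repeat sequence. In the body of Cd28, 3 of the 7 shared regions ranked higher with IL-4 in the full lists and this 1 lower, against 19.7% and 5.18% over the genome. Among shared regions alone, 1 ranked higher and 1 lower, against 14.3% and 12.7% over the genome.

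**Figure D4:**
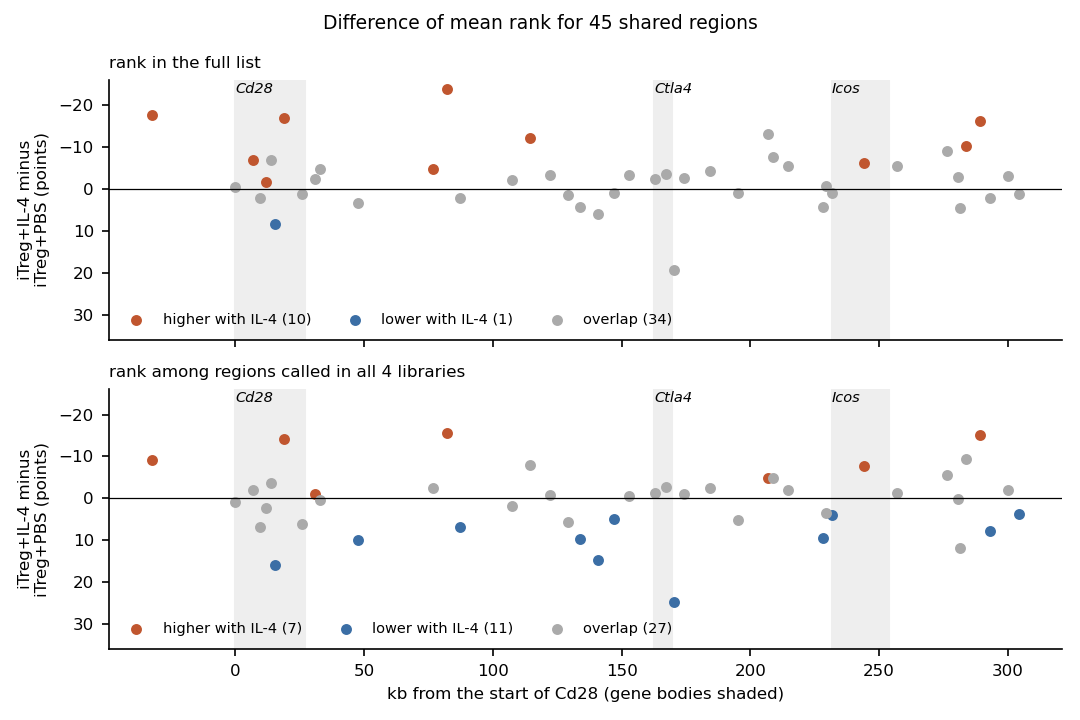
Difference of the mean rank with IL-4 minus without IL-4, in points, for the 45 regions called in all 4 libraries, against kb from the start of Cd28; values above the zero line are stronger with IL-4, and colour marks regions whose conditions do not overlap. The upper plot, from full lists, has 10 higher and 1 lower, and the lower plot, from shared regions alone, has 7 higher and 11 lower.

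Heights compared within a library gave another view of the same regions, since dividing by the nearest of the 3 promoters removes the scale of the library. The comparison was chosen after the data were seen. Of the 42 shared regions that are no promoter, 6 stood higher over their promoter in each library with IL-4 than in either without, and 7 stood lower. Over the genome, 17.6% of 34974 shared regions outside promoters stood higher in this way over their nearest promoter and 10.4% lower, so that the first count is near the background. By promoter, 4 of 15 near Icos were higher and none lower, none of 15 near Ctla4 was higher and 6 lower, and 2 of 12 near Cd28 were higher and 1 lower. All regions near one gene share one divisor, so they are not independent. The region chr1:60879957-60880620, 28.7 kb before Ctla4, stood at 0.625 and 0.676 of the Ctla4 promoter without and 0.453 and 0.408 with IL-4. The region chr1:60886658-60887488, which covers the start of an additional Ctla4 transcript outside the basic set of GENCODE, stood at 0.381 and 0.282 without and 0.218 and 0.201 with IL-4. The region chr1:60916330-60916848, just past the end of Ctla4, stood at 0.363 and 0.444 without and 0.296 and 0.228 with IL-4. It also had the largest rank difference toward iTreg+PBS in the full lists, 19.3 points, although its ranks overlapped, at 36.9% and 47.7% without and 46.7% and 76.4% with IL-4. Among shared regions, all 3 of these ranked lower with IL-4, as 12.7% did over the genome, and the Ctla4 promoter itself overlapped. The 3 were picked from the 6 already lower over that promoter. Rank and height come from the same peaks, so this is no separate support. By height over the Cd28 promoter, however, the Ctla4 promoter, which is the divisor here, was higher with IL-4 without overlap, and its part in the 6 lower ratios was not tested. The Icos promoter, the divisor for its neighbours, was the one of the 3 that was weaker among shared regions with IL-4. Over the genome, 12.7% of shared regions were weaker on that scale.

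The regions shared some properties of sequence. Their median GC content was 44.1% (35.0% to 54.5%), against 49.2% over all regions, and 6 held no CpG. Of 8 motifs searched on both strands in the central 200 bases, NFAT was the most frequent, in 19 of 75 regions (25.3%) against 14.4% of 93503 regions on assembled chromosomes. AGATAA of GATA factors was in 10 (13.3% against 7.86%) and TGTGGTT of RUNX factors in 10 (13.3% against 8.93%). TGANTCA of AP-1 was in 10 (13.3% against 12.9%), and TTCNNNGAA, bound by STAT5, in 6 (8.00% against 8.47%). TTCNNNNGAA of STAT6 was in 6 (8.00% against 5.84%). Over whole regions, which differ in width, STAT5-type letters were in 26.7% against 17.9% and STAT6-type letters in 21.3% against 13.6%. The motif of CTCF (CCANNAGNNGGC) was in 2 (2.67% against 6.99%), and TGTTTAC of forkhead factors in none (against 2.52%). Over whole regions, the CTCF motif was in 6.67% against 11.5% and the forkhead motif in 1.33% against 6.36%. STAT6-type and STAT5-type letters differ by 1 base of spacing, and matches of any of these motifs may share bases. The part of the lower GC content in these shares was not tested.

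The other genes of the pathway also carried promoter peaks. All 12 further receptors and all 17 signalling genes had a promoter peak in all 4 libraries, as had 4 of 5 ligands, and the exception, Pdcd1lg2, which encodes a ligand of PD-1, was called in 3. Thus 33 of 34 were called in every library, where 58.1% of all protein-coding genes were, and no promoter was particular to either condition by its calls. The median density around these genes was 15.3 regions per 100 kb, and that around Cd28, Ctla4 and Icos, taken with 50 kb on either side of each gene, was 18.9, 24.3 and 24.5.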

How the data were processed

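ATAC-seq peaks of 2 iTreg+PBS and 2 iTreg+IL-4 libraries were analysed, with groups and replicate numbers from the labels. The authors sequenced on the BGISEQ-500 platform, mapped read pairs to mm10 with Bowtie2 (2.2.5), kept mapped pairs and called peaks in each library with MACS2 (2.1.2). The submitters' processing notes also name bedtools 2.16.2. Removal of duplicate reads and a shift for the transposase are not given in the sources used here, and either could move heights and edges. The deposited lists hold positions, −log10 of the q-value and the pileup height as a signal unscaled between libraries. The meaning of these columns was read from their values, which begin near 1.31, the −log10 of a q-value of 0.05.

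Peaks were merged with Python 3.11.15, numpy 2.4.6 and pandas 2.3.3, and sequences were read with pysam 0.24.0. Gene records were GENCODE M21 basic transcripts, and a promoter was 1 kb on either side of a start site. Rank is the percent of peaks of the same list with a higher −log10 q. Exact permutation tests were run over libraries, and the merging was tested on simulated lists. Alternatives were the upper 50% of lists, lists of 56645 peaks, a reciprocal overlap of 50%, flanks of 10 kb and 100 kb, other rankings, whole regions for motifs, other promoters and annotation (RefSeq), each library left out, and a replicate block. Named regions were the promoters, those called in one condition only, the 6 best by weakest library, and up to 3 with the largest rank difference each way. The genes, lists and rules were chosen with earlier results of these data known. Expression was not analysed here.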

Additional observations from a re-analysis of the deposited data

How the results depend on the processing

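The promoter peaks of Cd28, Ctla4 and Icos were called in 4 libraries under each window, list and annotation tried. Of 83 alternatives over all results, 6 turned the sign of a difference, those in bases, in peaks and in median rank without iTreg+PBS replicate 2 and without iTreg+IL-4 replicate 1. With each library left out, the difference in bases ran from -3155 to 5934, that in peaks from -6 to 7, the regions called in all libraries from 45 to 51, those called only with IL-4 from 3 to 9 and only without from 3 to 9. The median rank difference ran from -7.31 to 3.91 (-0.22 with lists of equal length), and the counts higher and lower with IL-4 from 10 to 33 and from 1 to 22. With a library left out, its condition rests on a single library, so counts of regions can hardly fall. The count called only without IL-4 was 0 in the upper 50% of lists. Shares over the genome were not computed for this cut or with a library left out. By rank of height, 7 of the 45 regions were higher with IL-4 and 0 lower, where 20.4% and 4.42% were over the genome. By rank among shared regions, 7 were higher and 11 lower, where 14.3% and 12.7% were over the genome. By height over the median shared region, 6 were higher and 7 lower, which is 13.3% and 15.6% of the 45 regions against 11.0% and 12.3% over the genome. Over whole regions in place of the central 200 bases, the share of domain regions over that of all regions went from 0.944 to 1.49 for STAT5-type letters, from 0 to 0.210 for forkhead and from 0.382 to 0.582 for CTCF. Why these counts moved was not tested beyond the change in construction.

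With the number as a replicate block, the differences stayed at 1389.5 bases and 0.5 peaks (exact permutation test, p = 1 for both, smallest possible 0.5), and the median rank difference at -2.66 points. Nothing says that the numbers pair libraries, and same-numbered libraries deviated together with r = 0.362 over the 45 regions and 0.452 over all shared regions. Having 2 libraries per condition and an unknown depth limits every comparison, and a region without a call may still hold reads.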
